A study of Mus musculus with 72 samples.

Results

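Bile acids are made from cholesterol in hepatocytes, carried out into bile by a pump of the canalicular membrane, and taken back up from portal blood. The classic pathway begins with *Cyp7a1*, the rate-limiting cholesterol 7α-hydroxylase, and *Cyp8b1*, the sterol 12α-hydroxylase, sets how much of the product is cholic acid. The alternative pathway runs through *Cyp27a1*, the sterol 27-hydroxylase, and *Cyp7b1*, the oxysterol 7α-hydroxylase. *Abcb11* encodes the bile salt export pump and *Slc10a1* the sodium-dependent uptake carrier NTCP. *Nr1h4* encodes FXR, the nuclear receptor that senses bile acids, and *Nr0b2* encodes SHP, the corepressor that FXR induces and that lowers *Cyp7a1* and *Cyp8b1* transcription. These 8 genes, of 37108 symbols in the count tables, were chosen by name for their place in this pathway. The choice was made with earlier results of these data known, and all 8 are listed in each of the 7 tables.

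Levels were measured by RNA-seq of whole tissue in 72 mouse libraries, 21 of liver and 51 of gonad. The livers came from 12-week-old F2 animals, which were themselves conceived by mating. Their sires were F1 males produced either by in vitro fertilization (IVF), with embryos cultured to the blastocyst stage and transferred to pseudopregnant CF-1 recipients, or by in vivo conception (Natural). F1 embryos of both kinds came from CF-1 eggs and SJL/B6 sperm, F1 young of both kinds were fostered, and F2 dams of both groups were CF-1 females. IVF also brought superovulation of the egg donor, embryo culture and transfer, which the Natural group did not have. There were 5 Natural and 5 IVF male livers, and 5 Natural and 6 IVF female livers. The gonad tables held F1 testes at E18.5 (4 Natural, 6 IVF), 12 weeks (5 and 5) and 39 weeks (4 and 6). They also held F2 testes (5 and 7) and F2 ovaries (4 and 5), both at 12 weeks. The labels do not say which libraries share a sire or litter, so the p-values below measure the spread between these libraries. The study counted F2 litters from 4 breeding pairs per group, so F2 libraries of a group may share a sire. It describes the sequenced F1 testes as coming from different litters.

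The liver libraries were uneven in a way that followed the groups. Totals, rounded to 6 digits, ran from 10391100 to 44069300 counts in Natural males, from 543745 to 12624700 in IVF males, from 3947640 to 34149700 in Natural females and from 13815200 to 90441400 in IVF females. The study's sequencing summary lists its lowest liver mapping rates among IVF males and Natural females. Each library was also given a slope, the change in log2 level, relative to the 21-library mean, per 10 points of transcript GC content. This slope was 0.41 to 0.53 in Natural males and −0.92 to −0.09 in IVF males, whereas it was −0.66 to −0.24 in Natural females and 0.18 to 0.59 in IVF females. The libraries of the IVF group therefore had lower counts of GC-rich transcripts in males and higher counts of them in females, and the 2 groups of a sex did not overlap in either case. Among all genes tested, the median log2 difference (IVF minus Natural) of genes over 55% GC was −0.74 in males and 0.91 in females. GC content of the member transcripts was 39.7% for *Cyp7a1*, 42.5% for *Cyp7b1*, 46.1% for *Abcb11*, 47.2% for *Nr1h4*, 47.7% for *Slc10a1*, 53.5% for *Cyp27a1*, 54.8% for *Cyp8b1* and 57.8% for *Nr0b2*. Sire group and these library properties cannot be told apart within a sex, so values with the GC trend removed or with mapping rate as a covariate are printed for the members called, and those with the GC trend removed for the other pathway genes named.

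All 8 hepatocyte markers examined, among them *Alb* and *Ttr*, were detected in every liver group, and their summed level was 71922 to 250128 CPM (counts scaled to a total of 1e6 per library). In females this sum was 161666 to 250128 CPM in the Natural and 107681 to 128377 CPM in the IVF libraries, without overlap. The 5 stellate cell and fibroblast markers summed to 234 to 272 CPM in Natural females and 109 to 164 CPM in IVF females, again without overlap, and to 89.1 to 123 and 144 to 226 CPM in Natural and IVF males. The 5 red blood cell genes summed to 467 to 760 CPM in Natural females and 155 to 381 CPM in IVF females. The 6 bile duct markers summed to 40.7 to 57.0 CPM in Natural females and 16.6 to 41.9 CPM in IVF females. In males they summed to 29.5 to 72.3 CPM in Natural and 39.8 to 83.8 CPM in IVF livers. The 5 pancreas genes summed to 0.611 to 20.5 CPM in IVF females and at most 0.285 CPM in Natural females, and the 5 testis germ cell genes reached 94.1 CPM in a Natural male liver and at most 4.24 CPM in IVF males. The part of these marker differences in the results was not tested, and in whole tissue fewer cells of a type and less RNA per cell cannot be told apart.

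Control motifs of the feedback loop were looked for close to the transcription starts. For the 3 members shown here, *Abcb11*, *Nr0b2* and *Cyp8b1*, the 250 bases before the RefSeq start (GRCm38.p6, the assembly also called mm10) were searched on both strands for the IR-1 motif (an inverted repeat with a 1-base spacer, bound by FXR), TCAAGG (bound by NR5A2) and CAAAGTCCA (bound by HNF4A), and matches are in capitals. They are printed because FXR drives *Abcb11* and *Nr0b2* directly, NR5A2 (LRH-1) acts on *Nr0b2*, and HNF4A acts on *Cyp8b1*. Each is written 5′ to 3′ on the strand of its gene.
Abcb11, minus strand, chr2:69342617-69342866: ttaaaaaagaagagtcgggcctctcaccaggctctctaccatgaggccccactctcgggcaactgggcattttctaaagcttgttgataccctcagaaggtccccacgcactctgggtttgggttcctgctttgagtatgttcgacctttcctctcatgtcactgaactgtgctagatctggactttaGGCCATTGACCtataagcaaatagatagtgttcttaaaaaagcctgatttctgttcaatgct
Nr0b2, plus strand, chr4:133553126-133553375: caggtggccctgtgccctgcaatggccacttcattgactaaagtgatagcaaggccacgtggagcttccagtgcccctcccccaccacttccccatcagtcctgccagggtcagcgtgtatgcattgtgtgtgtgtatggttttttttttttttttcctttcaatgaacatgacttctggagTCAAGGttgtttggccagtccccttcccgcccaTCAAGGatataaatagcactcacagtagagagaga
Cyp8b1, minus strand, chr9:121916306-121916555: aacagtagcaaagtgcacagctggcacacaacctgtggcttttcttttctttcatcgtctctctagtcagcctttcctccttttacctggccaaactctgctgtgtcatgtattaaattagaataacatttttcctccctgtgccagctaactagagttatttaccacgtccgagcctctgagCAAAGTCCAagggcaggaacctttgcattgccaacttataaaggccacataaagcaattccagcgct

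The *Abcb11* window held 1 inverted repeat, 62 to 52 bases before the start, and the *Nr0b2* window held none. The *Nr0b2* window held 2 TCAAGG matches, at 68 to 63 and at 35 to 30 bases before the start, and the *Cyp8b1* window held 1 CAAAGTCCA match, at 67 to 59 bases. The inverted repeat was found in 0.575% of 32851 RefSeq windows of this length, TCAAGG in 12.5% and CAAAGTCCA in 0.384%. Promoter sequence was at hand for 6 of the 8 members, and each motif matched in 1 of those 6. A match describes these letters only. The lack of a match does not show that a site is missing, as looser or more distant sites were not searched for.

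The first comparison asked whether the sire's conception was followed by a difference in the livers of his sons. A gene was called when edgeR's quasi-likelihood test gave it a Benjamini-Hochberg adjusted p, over all genes, below 0.05 and its level changed by more than 1.5-fold. In males, 13.9% of 11973 tested genes were called higher and 17.2% lower in IVF livers. Of the 8 members, all tested, 1 was called higher (*Slc10a1*) and 2 lower (*Cyp8b1* and *Cyp27a1*). DESeq2 called 2, since *Slc10a1* at 0.56 did not reach the fold limit, and edgeR also left *Slc10a1* uncalled with DESeq2 size factors, with no filter and with at least 10 counts in every library. Among all tested genes 27% had groups that did not overlap, and 2 of the 8 members did.

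*Cyp8b1*, which directs synthesis toward cholic acid, fell in the IVF males. Its level was 751, 979, 1057, 948 and 904 CPM in the 5 Natural livers and 413, 234, 227, 311 and 345 CPM in the 5 IVF livers. Every IVF library lay below every Natural library. The log2 difference was −1.59 (SE 0.19, adjusted p 6.9e-05 by edgeR), 3.01-fold lower. It was −1.19 (adjusted p 0.000292) with the GC trend removed and −1.48 (adjusted p 0.00477) with mapping rate as a covariate. When only libraries mapped at 75% or more were used and IVF 3 was left out for its low total, which kept 5 Natural and 2 IVF livers, it was −1.36 (adjusted p 0.000411).

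*Cyp27a1*, the mitochondrial enzyme that opens the alternative pathway, also fell. It stood at 422, 485, 511, 460 and 486 CPM in Natural and 315, 257, 184, 261 and 339 CPM in IVF males, again without overlap. The log2 difference was −0.79 (SE 0.17, adjusted p 0.00262 by edgeR). It was −0.86 (adjusted p 0.0231) with mapping rate as a covariate and −0.52 (adjusted p 0.0209), under the fold limit, with the GC trend removed.

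*Slc10a1*, the uptake carrier, was 353, 351, 402, 407 and 354 CPM in Natural and 795, 585, 392, 489 and 533 CPM in IVF males. Of the IVF libraries, 4 lay above all Natural ones, and the library with the fewest counts, IVF 3, lay inside their range. The log2 difference of 0.59 (SE 0.18, adjusted p 0.0194 by edgeR) was just past the fold limit. It was 0.31 (adjusted p 0.232) with the GC trend removed, and 0.51 (adjusted p 0.148) with mapping rate as a covariate. Of the 10 fits that left out 1 library, 5 kept the call, and those without Natural 1, Natural 2, Natural 5, IVF 1 or IVF 2 lost it.

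The other 5 members were not called in males. *Cyp7a1*, the rate-limiting enzyme, was 86.1, 168, 162, 132 and 128 CPM in Natural and 448, 356, 89.8, 153 and 66.7 CPM in IVF livers. The IVF libraries spread on both sides of the Natural range, so the log2 difference of 0.74 had an SE of 0.49 (adjusted p 0.265 by edgeR), and with the GC trend removed it was 0.01. *Nr1h4* was 71.3 to 96.4 CPM in Natural and 93.3 to 142 CPM in IVF livers, a log2 difference of 0.43 (SE 0.16, adjusted p 0.0495 by edgeR) below the fold limit. It became 0.10 (adjusted p 0.639) with the GC trend removed. *Nr0b2* was 22.0, 28.4, 31.7, 13 and 25.3 CPM against 11.7, 19.4, 18.9, 10.5 and 28.0 CPM, and the groups overlapped (log2 difference −0.48, SE 0.29, adjusted p 0.226 by edgeR). *Nr0b2* was called at −1.11 (adjusted p 0.0349) when the 5 Natural livers were set against 2 well-mapped IVF livers, and at −0.83 (adjusted p 0.0392) without IVF 5, whereas it was 0.19 (adjusted p 0.717) with the GC trend removed. *Cyp7b1* (0.29, SE 0.35) and *Abcb11* (0.09, SE 0.21) had adjusted p values of 0.555 and 0.783.

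**Figure D1:**
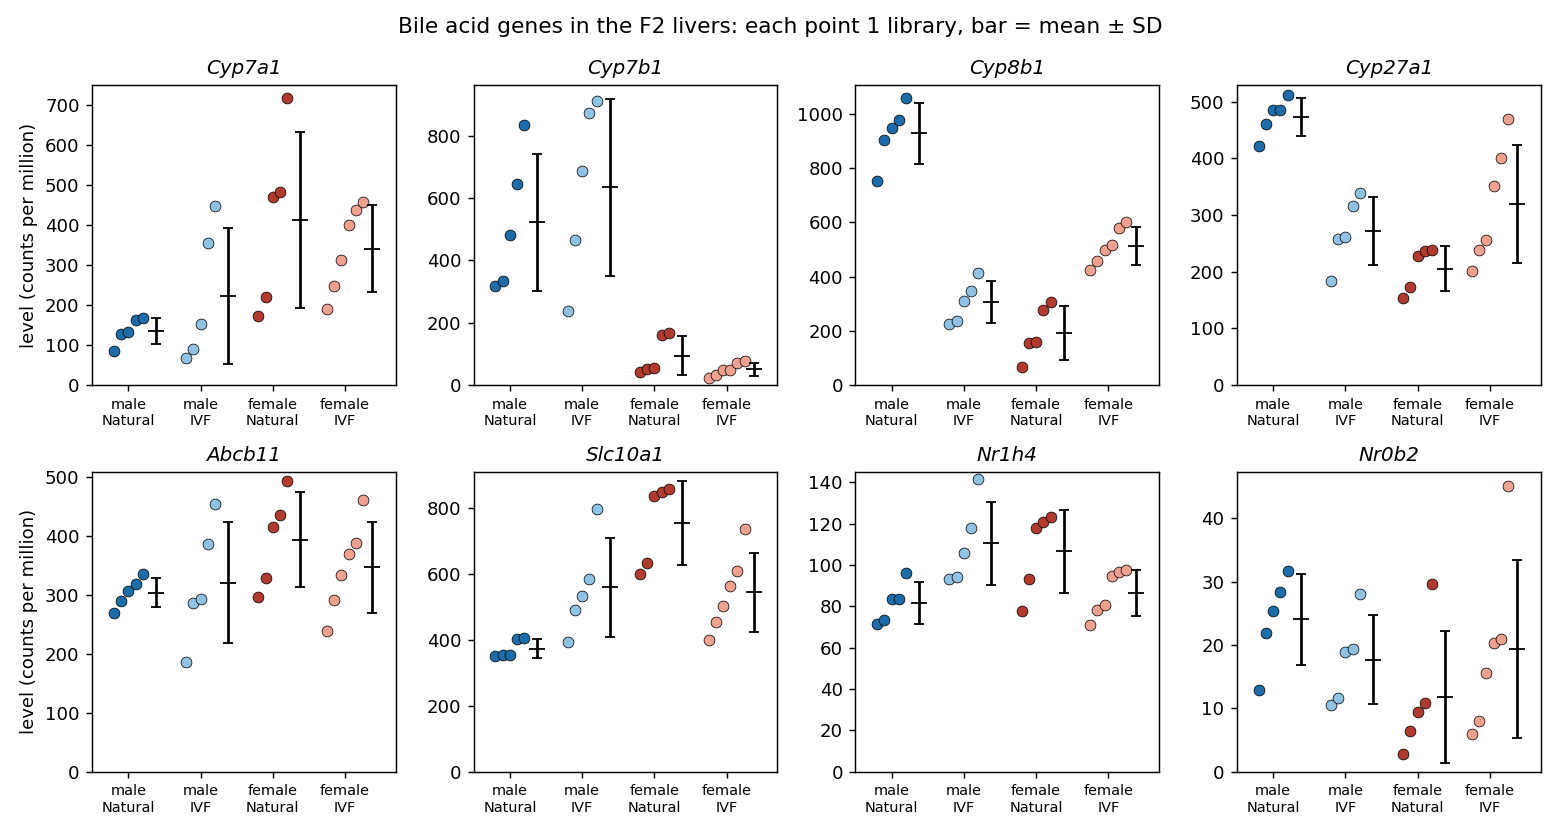
Level of each of the 8 members (vertical axis, CPM on TMM-scaled library sizes, linear from 0) in the 21 F2 liver libraries, by sex and by conception of the sire (horizontal axis). Points are libraries and bars are the mean ± SD. *Cyp8b1* lies at 751 to 1057 CPM in Natural males and 227 to 413 CPM in IVF males, and at 64.9 to 307 CPM in Natural females and 423 to 601 CPM in IVF females, while *Cyp7b1* separates by sex.

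The same comparison in daughters gave the opposite pattern. In females, 21.6% of 12525 tested genes were called higher and 17.8% lower in IVF livers. Of the 8 members, 2 were called higher (*Cyp8b1* and *Cyp27a1*) and 0 lower, with 3 at an unadjusted p under 0.05, and DESeq2 also called 2 members. Groups without overlap were seen for 29.4% of all genes and for 1 of the 8 members.

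*Cyp8b1* rose in the IVF females. It was 64.9, 153, 276, 307 and 157 CPM in the Natural livers, and its lowest, median and highest values in the 6 IVF livers were 423, 507 and 601 CPM. Every IVF library lay above every Natural library, and all 11 female values lay below the lowest Natural male. The log2 difference was 1.42 (SE 0.30, adjusted p 0.00160 by edgeR). With the GC trend removed it was 0.95 (adjusted p 0.0379). With mapping rate as a covariate it was 1.25 with an SE of 0.60 (adjusted p 0.192), and the call was lost.

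*Cyp27a1* was 153, 173, 236, 238 and 227 CPM in Natural females and 201, 304 and 468 CPM (lowest, median, highest) in IVF females. The groups overlapped, and the log2 difference was 0.63 (SE 0.21, adjusted p 0.0214 by edgeR). It was 0.29 (adjusted p 0.309) with the GC trend removed, 0.71 (adjusted p 0.229) with mapping rate as a covariate, and lost its call when Natural 1, IVF 5 or IVF 6 was left out, 3 of 11 such fits.

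*Slc10a1* was 598, 632, 848, 858 and 836 CPM in Natural and 398 to 736 CPM in IVF females, a log2 difference of −0.48 (SE 0.17, adjusted p 0.0255 by edgeR) that did not reach the fold limit. *Cyp7a1* ranged from 173 to 716 CPM in Natural and from 190 to 458 CPM in IVF females, with a log2 difference of −0.28 (SE 0.35, adjusted p 0.530 by edgeR). The wide Natural range enclosed all 6 IVF values. *Nr0b2* had the widest relative spread of the members in female livers, at 10.9, 29.6, 2.85, 6.42 and 9.38 CPM in Natural and 6.00 to 45.2 CPM in IVF females (0.66, SE 0.63, adjusted p 0.416 by edgeR). Its lowest value, in Natural 3, rested on 10 counts. *Cyp7b1* (−0.92, SE 0.46), *Nr1h4* (−0.31, SE 0.15) and *Abcb11* (−0.19, SE 0.18) had adjusted p values of 0.119, 0.0947 and 0.396.

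The fitted difference had opposite signs in the sexes for 8 of 8 members. It also did for 82.2% of the 11825 genes tested in both tables, a share that leaves the members' signs close to the background. In 1 fit of all 21 livers, the sex by conception interaction (the female difference minus the male difference) was called higher for 27.7% and lower for 25.2% of 13073 genes. It was called for 4 members, and for 5 without female Natural 2, where *Nr0b2* was added (adjusted p 0.0330 by edgeR). The interaction was 3.01 (SE 0.37, adjusted p 2.59e-07 by edgeR) for *Cyp8b1*, 1.43 (SE 0.28, adjusted p 0.000117) for *Cyp27a1*, −1.06 (SE 0.25, adjusted p 0.000830) for *Slc10a1* and −0.73 (SE 0.21, adjusted p 0.00541) for *Nr1h4*. With the GC trend removed, *Cyp8b1* at 2.13 (adjusted p 4.97e-05) and *Cyp27a1* at 0.82 (adjusted p 0.0134) were still called. *Slc10a1* at −0.47 (adjusted p 0.121) and *Nr1h4* at −0.03 (adjusted p 0.923) were not. With mapping rate as a covariate, *Cyp8b1* (2.70, adjusted p 0.0012), *Cyp27a1* (1.56, adjusted p 0.00657) and *Slc10a1* (−0.95, adjusted p 0.0452) were called and *Nr1h4* (−0.28, adjusted p 0.478) was not.

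**Figure D2:**
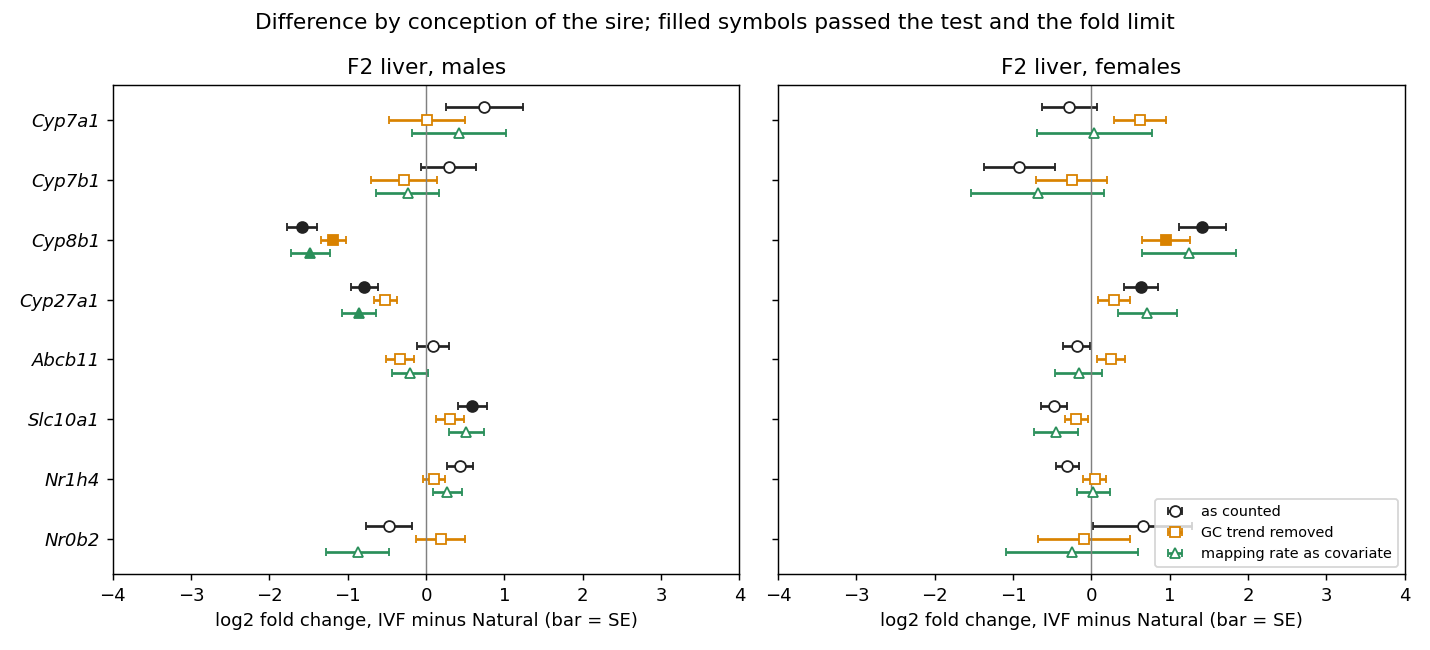
Log2 fold change of each member (horizontal axis, IVF minus Natural, bars are the SE) in male and female F2 livers, as counted, with the GC trend removed and with mapping rate as a covariate. Filled symbols mark called genes. *Cyp8b1* runs from −1.59 to −1.19 in males and from 0.95 to 1.42 in females, whereas *Nr1h4* moves to 0.10 and 0.04 once the GC trend is removed.

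Plotted against the GC slope, the Natural males and IVF females lie at positive slopes and the other 10 libraries at negative slopes. *Cyp8b1* was 423 CPM or more in the 11 libraries of positive slope and 413 CPM or less in the 10 of negative slope. Within the positive libraries, Natural males (751 to 1057 CPM) lay above IVF females (423 to 601 CPM). Within the negative ones, IVF males (227 to 413 CPM) overlapped Natural females (64.9 to 307 CPM). For *Cyp7b1*, each male library lay above each female library at positive and at negative slopes. On each side the sexes also differed in the conception of the sire. The shares of all genes that split in these ways were not counted.

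**Figure D3:**
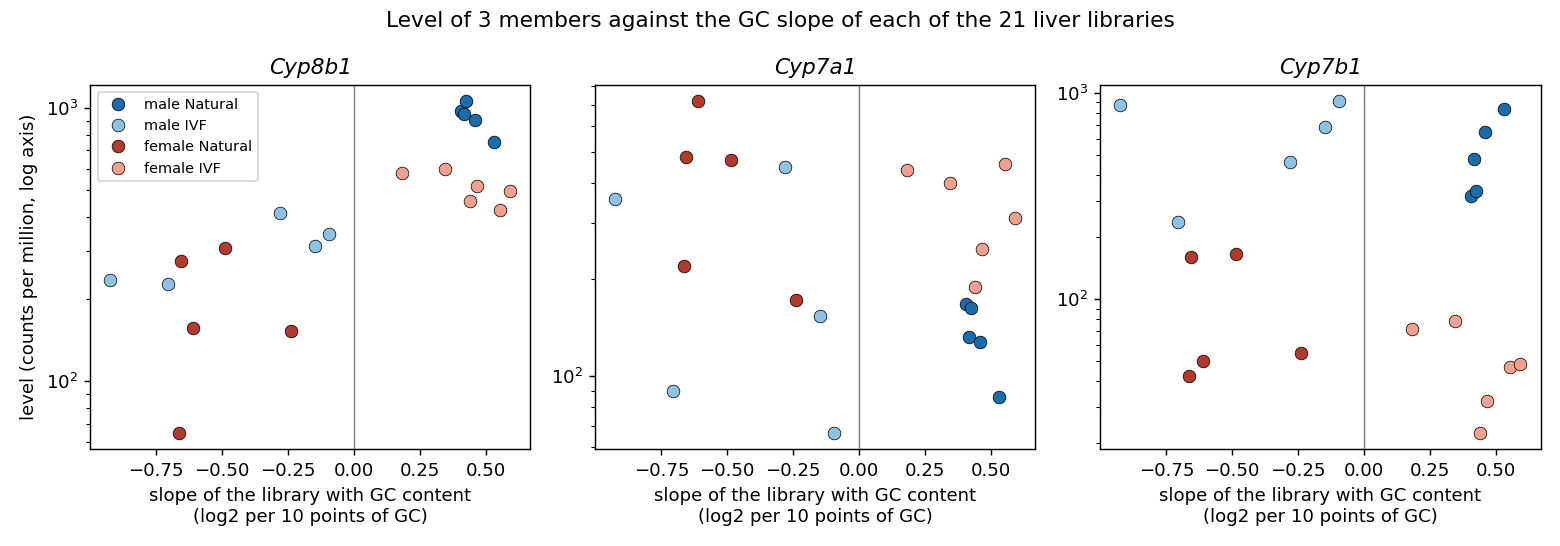
Level of *Cyp8b1*, *Cyp7a1* and *Cyp7b1* (vertical log axis, CPM) against the GC slope of the library (horizontal axis, log2 per 10 points of GC) for the 21 F2 livers. Each point is 1 library, coloured by sex and conception of the sire. *Cyp8b1* is at 423 CPM or more to the right of 0 and at 413 CPM or less to the left of it. *Cyp7b1* splits by sex on both sides, where the sexes also differ in the conception of the sire.

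The sexes were then compared within each conception group, because several of these genes are known to differ between male and female mouse liver. *Cyp7b1*, whose enzyme clears oxysterols and is male-biased in mouse liver, was higher in males in both groups. It was 835, 317, 334, 481 and 644 CPM in Natural males and 42.4, 54.9, 159, 166 and 50 CPM in Natural females. It was 464, 873, 236, 685 and 910 CPM in IVF males and 22.5 to 78.4 CPM in IVF females. The lowest male library lay above the highest female library in both groups. The log2 difference (female minus male) was −2.47 (SE 0.48, adjusted p 0.000357 by edgeR) in Natural and −3.67 (SE 0.47, adjusted p 1.20e-05) in IVF livers. With the GC trend removed these were −3.15 (adjusted p 0.000185) and −3.10 (adjusted p 0.000176), and with mapping rate as a covariate −2.99 (adjusted p 0.00319) and −3.31 (adjusted p 0.000199).

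Other members were also compared between the sexes in each group. In Natural livers 19.6% of genes were called higher and 22.6% lower in females, and 38.8% had groups that did not overlap. There, 2 members were called higher in females, *Cyp7a1* (1.61, SE 0.47, adjusted p 0.00908 by edgeR) and *Slc10a1* (1.01, SE 0.18, adjusted p 6.43e-05), and 3 lower, *Cyp7b1*, *Cyp8b1* (−2.28, SE 0.27, adjusted p 5.81e-07) and *Cyp27a1* (−1.20, SE 0.20, adjusted p 3.21e-05). *Cyp8b1*, *Cyp27a1* and *Slc10a1* kept these calls with the GC trend removed, at −1.81, −0.89 and 0.69 (adjusted p 1.81e-05, 0.000669 and 0.003), and with mapping rate as a covariate, at −2.08, −1.29 and 0.95 (adjusted p 0.000534, 0.0021 and 0.00638). *Cyp7a1* lost its call in both fits. The same 5 members had groups that did not overlap. In IVF livers 18.2% of genes were called higher and 14.4% lower in females, and 20.2% did not overlap. There, 1 member was called higher in females, *Cyp8b1* (0.74, SE 0.25, adjusted p 0.0228), and 1 lower, *Cyp7b1*. *Cyp8b1* was thus lower in females among Natural livers and higher among IVF livers. The IVF difference was no longer called with the GC trend removed (0.32, adjusted p 0.365) or with mapping rate as a covariate (0.62, adjusted p 0.127), and it was 0.65 (adjusted p 0.0694 and 0.0601) without male IVF 2 or without IVF 3. *Cyp7a1* in Natural livers was 0.75 (adjusted p 0.22) with the GC trend removed and 1.19 (adjusted p 0.192) with the covariate. In IVF livers *Cyp7a1* moved from 0.60 (adjusted p 0.314) to 1.40 (adjusted p 0.0283) with the GC trend removed, which gained it a call. It was higher in females in each case. The tables of the sexes are separate, so sex and any sequencing occasion cannot be told apart.

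Among members, levels can be ordered only per transcript length. In Natural males the mean ± SD (n = 5) was 476 ± 58.2 CPM per kilobase for *Cyp8b1*, 250 ± 17.7 for *Cyp27a1*, 241 ± 101 for *Cyp7b1*, 214 ± 16.3 for *Slc10a1*, 61.4 ± 5.13 for *Abcb11*, 40.6 ± 4.97 for *Nr1h4*, 32.4 ± 7.83 for *Cyp7a1* and 21.3 ± 6.33 for *Nr0b2*. *Cyp7b1* and its neighbours *Cyp27a1* and *Slc10a1* did not differ beyond their spread (their mean ± SD ranges overlapped), nor did *Nr1h4* and *Cyp7a1*, or *Cyp7a1* and *Nr0b2*. In IVF females (n = 6) *Slc10a1* led at 311 ± 68.9 CPM per kilobase, ahead of *Cyp8b1* at 263 ± 35.1, *Cyp27a1* at 169 ± 55.1, *Cyp7a1* at 81.7 ± 26.0 and *Abcb11* at 70.0 ± 15.6. *Nr1h4* stood at 43.0 ± 5.55, *Cyp7b1* at 23.1 ± 10.0 and *Nr0b2* at 17.1 ± 12.4. The first pair, *Cyp7a1* with *Abcb11*, and *Cyp7b1* with *Nr0b2* did not differ beyond their spread, and *Cyp7b1* stood among the lowest. These values keep the GC trend of the libraries, and both groups ordered here had positive GC slopes. The order differed at negative slopes. By library, *Slc10a1* was 224 to 454 and *Cyp8b1* 116 to 212 CPM per kilobase in IVF males. In Natural females *Slc10a1* was 342 to 490 and *Cyp8b1* 33.3 to 157 CPM per kilobase.

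Of 48 other genes of bile acid synthesis, conjugation, transport and control, 41 were tested in males and 42 in females. In males 5 were called higher and 7 lower, near the 13.9% and 17.2% of all genes, with a list median of −0.02 on the log2 scale beside −0.01 for all genes. In females 9 were called higher and 6 lower, near the 21.6% and 17.8% of all genes, with a list median of −0.0010 beside −0.01. Of these, 9 genes were called in both sexes, and all 9 in opposite directions, as were 99.7% of the 2917 genes of any kind called in both sexes. Of the 9, *Hsd3b7* and *Slc27a5* were still called in both sexes with the GC trend removed.

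In 1 fit of all livers the interaction was called for 26 of 42 list genes, 13 in each direction, beside 27.7% higher and 25.2% lower among all genes.

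Of the 15 synthesis and conjugation genes of the list that were tested, 4 were called lower and 1 (*Slc27a2*) higher in males, where 17.2% of all genes were lower and 13.9% higher, and 3 were called higher in females, where 21.6% of all genes were. The 3 described next were called in both sexes. *Hsd3b7*, which oxidizes the 3β-hydroxyl of the sterol ring, differed by −1.74 (SE 0.21) in males and 1.26 (SE 0.14) in females. *Slc27a5*, the bile acyl-CoA synthetase, differed by −1.19 (SE 0.22) and 1.42 (SE 0.18). *Acot8*, a peroxisomal thioesterase, differed by −1.21 (SE 0.31) and 1.60 (SE 0.22). All 6 values passed the test, with adjusted p of 0.00718 or lower by edgeR. With the GC trend removed *Hsd3b7* was −1.51 and 0.96 and *Slc27a5* was −0.97 and 1.13, called in both sexes, while *Acot8* was −0.57 (adjusted p 0.177) in males and 0.81 (adjusted p 0.00394) in females.

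Among the transport and control genes, *Ppargc1a*, a coactivator of hepatic fasting genes, was 1.71 (SE 0.28) higher in IVF males and fell by 1.25 on the log2 scale in IVF females. *Slco1b2*, a basolateral uptake carrier, was 0.82 (SE 0.22) and −0.79 (SE 0.14), and *Ncoa6*, a nuclear receptor coactivator, was 0.77 (SE 0.19) and −0.79 (SE 0.15). *Rxra*, the partner of FXR, was −0.91 (SE 0.18) in males and 1.02 (SE 0.15) in females, and *Mafg*, a repressor that FXR induces, was −0.81 (SE 0.15) and 0.89 (SE 0.19). *Slc10a2*, the apical carrier best known from ileum, was 1.65 (SE 0.44) and −1.43 (SE 0.39). Over the whole list, genes called in males and not in females included *Slc27a2*, a very-long-chain acyl-CoA synthetase among the conjugation genes, at 0.64. The others were *Abcc3*, a basolateral export pump, at −0.87, and 1 further gene. Called in females and not in males were *Nr1i3* (1.05, SE 0.20), which encodes the receptor CAR, *Nr1h3* (0.60, SE 0.12), which encodes the oxysterol receptor LXRα, *Abcg2* (−0.72, SE 0.15), an apical export pump, *Slco1a1* (−0.67, SE 0.24), an uptake carrier, and 2 further genes.

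The list genes called higher in males had a median GC content of 41.7% and those called lower 54.2%, and in females the medians were 54.9% and 39.0%. With the GC trend removed 8 list genes were called in males, 5 of them among the original 12, and 9 in females, 5 of them among the original 15. Of all genes 17.4% and 17.9% were called in that fit, and 39.9% and 32.1% of the original calls were kept, so the list stood near the background. Calls kept in males were *Hsd3b7*, *Slc27a5*, *Slc27a2* at 0.77, *Ppargc1a* at 1.09 and 1 further gene, and in females *Hsd3b7*, *Slc27a5*, *Acot8*, *Nr1i3* at 0.66 and *Ncoa6* at −0.61. *Slc27a2* in females, at −0.53 and not called as counted, was −0.70 (adjusted p 0.00241) and called in that fit. Other named genes lost their calls there. *Slco1b2* was then −0.044 in males and 0.15 in females, both with the sign turned, and *Rxra* was −0.26 and 0.31. *Mafg* was −0.42 and 0.40, and *Slc10a2* was 0.79 and −0.29. *Ncoa6* was 0.56 and *Abcc3* −0.54 in males, and *Ppargc1a* was −0.49 in females. In females the sign also turned for *Nr1h3* (−0.17), *Abcg2* (0.20) and *Slco1a1* (0.27).

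Mapping rate as a covariate left 6 of the 12 list calls in males and 5 of the 15 in females, where 37% and 24.9% of all calls were kept. Those kept in both sexes were *Hsd3b7* (−1.62 and 1.19), *Slc27a5* (−0.79 and 1.01), *Rxra* (−0.80 and 0.75) and *Ppargc1a* (1.43 and −0.76). *Slc10a2* (2.3) and *Mafg* (−0.74) were kept in males and *Acot8* (1.04) in females, and the other named list genes were not called in that fit.

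*Cyp7a1* and *Nr0b2* follow the time of day and feeding, and the collection time is not given in the sources used here. *Dbp*, a clock output gene, ranged from 16.2 to 90.9 CPM in Natural males, 9.45 to 67.4 CPM in IVF males, 12.2 to 55.1 CPM in Natural females and 11.7 to 197 CPM in IVF females. All 4 ranges overlapped, and the medians were 62.2, 37.5, 30.0 and 63.6 CPM in the same order. The part of this spread in the values of the members, the called *Cyp8b1* among them, was not tested. Across the 21 livers, as a description of libraries that share depth and GC slope, the genes most like *Cyp7a1* among 13072 were *Ttc21b* (Spearman rho 0.86), *Elmod2* (0.84), *Zdhhc9* (0.81), *Stap1* (0.80) and *Akr1d1* (0.80). The least like were *Apex1* (−0.81), *Wnk4* (−0.78) and *Slc35b3* (−0.78). For *Nr0b2* the most like were *Cav1* (0.78), *Tstd1* (0.78), *Tbc1d22b* (0.77), *Fmod* (0.72) and *Fbln2* (0.71), and the least like *Dyx1c1* (−0.75), *Ywhaq* (−0.73) and *Ogfod3* (−0.72).

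In the gonads the members other than *Nr0b2* lay below their range in livers in every library, and different members were present in each organ. *Cyp27a1*, the 1 member found in every gonad library, was 55.2 ± 10.7 CPM (n = 10) in E18.5 testis, 8.46 ± 1.99 CPM (n = 10) at 12 weeks, 7.45 ± 1.65 CPM (n = 10) at 39 weeks, 7.98 ± 1.47 CPM (n = 12) in F2 testis and 15.2 ± 5.07 CPM (n = 9) in ovary. *Cyp7b1* was 9.56 ± 3.23 CPM in E18.5 testis, on 16 to 170 counts, and 3.35 ± 1.23 CPM in ovary. In the adult testes its mean was 0.269 CPM or less.

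*Nr1h4* was an ovarian transcript among the gonads. It was 15.9 ± 4.95 CPM (n = 9) in ovary, on 142 to 1061 counts, and its mean was 0.624 CPM or less in each testis table. *Nr0b2* was 5.45 ± 1.46 CPM in E18.5 testis, inside its female liver range, and 2.20 ± 0.745 CPM in ovary, and its mean was 0.403 CPM or less in adult testis. *Abcb11* was 0.646 ± 0.292 CPM (n = 9) in E18.5 testis without Natural 1, 2.82 ± 0.973 CPM at 12 weeks, 2.78 ± 1.27 CPM at 39 weeks and 2.89 ± 0.661 CPM in F2 testis. In ovary it had 2, 10, 0 and 2 counts in the 4 Natural libraries and 0 in each of the 5 IVF libraries. *Cyp7a1* was 1.02 ± 0.511 CPM in 12-week testis, on 6 to 32 counts. E18.5 testis Natural 1 held the 8 hepatocyte markers at 483 CPM in sum, against 2.50 to 18.6 CPM in the other 9 libraries, and it had the highest E18.5 levels of *Abcb11* (3.33 CPM), *Slc10a1* (2.85 CPM) and *Cyp8b1* (1.66 CPM). The part of liver RNA in these values was not tested. *Cyp8b1* did not exceed 8 counts in any gonad library, and *Slc10a1* did not exceed 25.

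**Figure D4:**
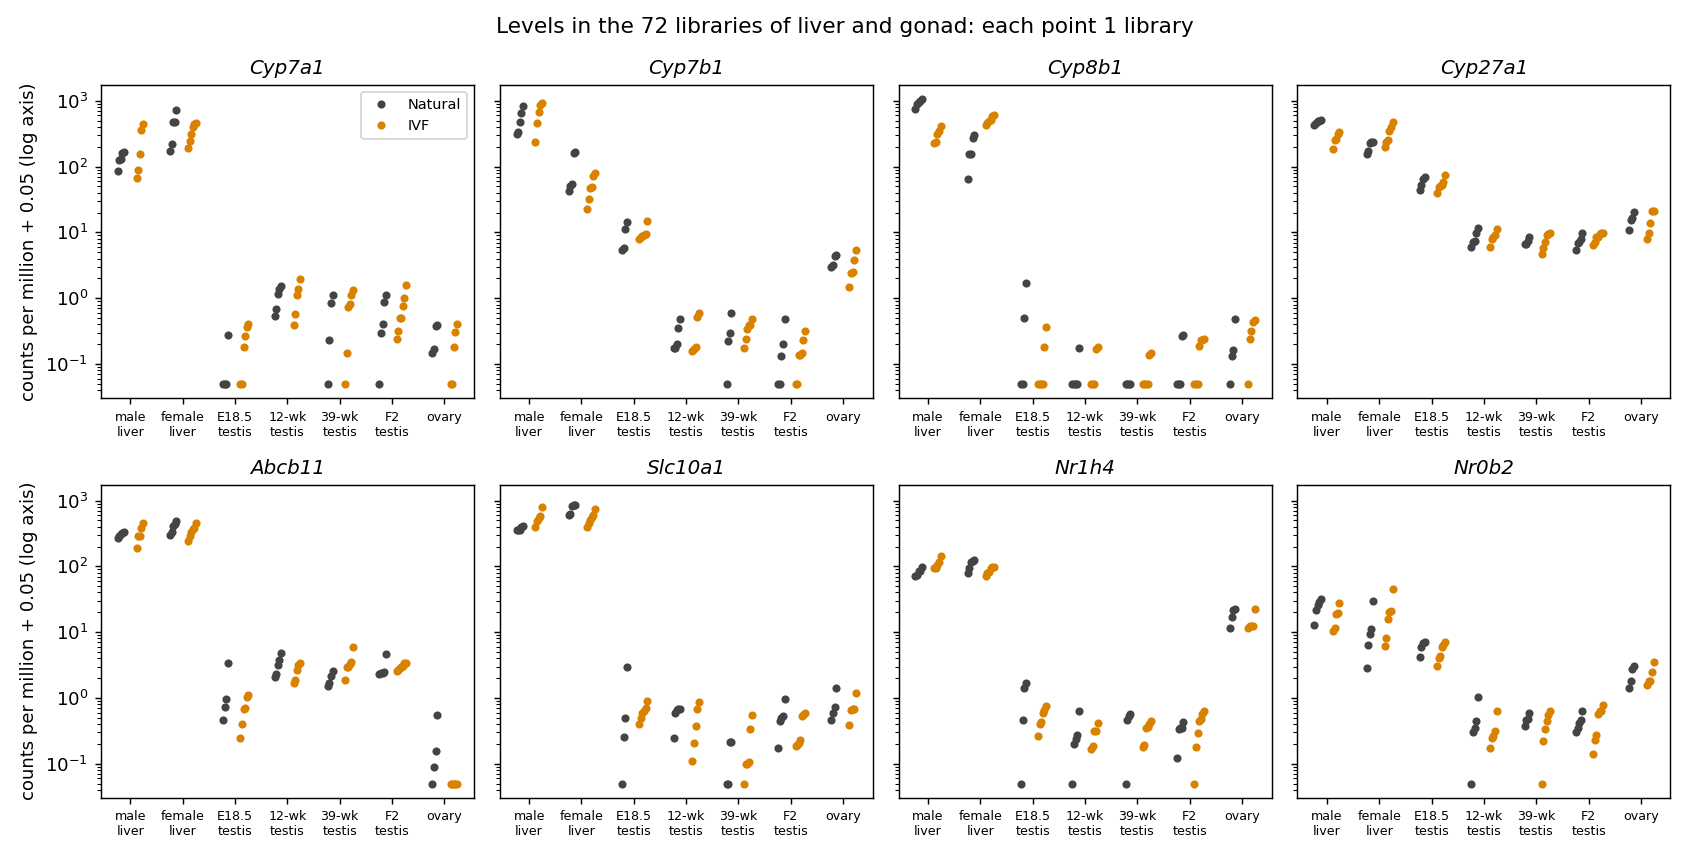
Level of each member (vertical log axis, CPM with 0.05 added) in the 72 libraries of the 7 tissues (horizontal axis), Natural and IVF side by side. Each point is 1 library, and the tables of different gonads were scaled separately. *Nr1h4* stands at 11.4 to 22.6 CPM in ovary and *Abcb11* at 1.46 to 5.82 CPM in adult testes, both far below liver.

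None of the members that passed the filter on low counts was called between IVF and Natural gonads by edgeR or by DESeq2. The tested members numbered 3 in E18.5 testis, 4 at 12 weeks, 3 at 39 weeks, 5 in F2 testis and 5 in ovary. The background of called genes was 0.221%, 0.199%, 0.00996%, 0.914% and 0% in the same order. In the ovary, where *Nr1h4* and *Cyp27a1* were tested, edgeR called 0 genes, with 1757 at an unadjusted p under 0.05, and DESeq2 called 88. Only *Abcb11* at 39 weeks had an unadjusted p under 0.05, at 1.46 to 2.55 CPM in the 4 Natural and 1.80 to 5.82 CPM in the 6 IVF testes (log2 difference 0.79, SE 0.33, adjusted p 0.430 by edgeR).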

How the data were processed

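The authors trimmed reads with Trimmomatic 0.32, mapped them to mm10 with STAR 2.3.0e and counted them with featureCounts 1.5.0, per the labels. The deposited values are raw counts per gene symbol. From 71.8% to 94.3% of the counts of 20 or fewer per liver library were even, as when both mates of a pair are counted. Tests were run with edgeR 4.0.16 (filterByExpr, TMM, robust quasi-likelihood, two-sided). The code was also run on counts simulated from its own model, with any added GC trend in the male direction only. Such a run cannot vouch for calls in these libraries. DESeq2 1.42.0 was an alternative. Levels are CPM on TMM-scaled sizes, the livers scaled jointly. GC content and transcript length came from GENCODE M21 and covered 96.9% to 97.8% of the genes tested in livers, and the GC trend was removed with loess offsets (span 0.5). The study's mapping rates served as a covariate and to select libraries. The genes, lists and tests were chosen with earlier results of these data known. Named genes are the 8 members, up to 6 called list genes per direction and liver table by smallest adjusted p, and the 5 most and 3 least correlated genes for *Cyp7a1* and *Nr0b2*. Depth limited male IVF 3 most (543745 counts), where *Nr0b2* rested on 8 counts.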

Additional observations from a re-analysis of the deposited data

Results flagged for a closer look

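The conception difference itself differed between the sexes for 4 members in the edgeR fit of all 21 livers. The female minus male value was 3.01 for *Cyp8b1*, 1.43 for *Cyp27a1*, −1.06 for *Slc10a1* and −0.73 for *Nr1h4* on the log2 scale. Among all genes tested 27.7% were called higher and 25.2% lower, close to the members' share. *Slc10a1* (−0.47, adjusted p 0.121) and *Nr1h4* (−0.03, adjusted p 0.923) were not called with the GC trend removed. The groups also differed in the GC slope of their libraries and in mapping rate, in opposite directions in the sexes.

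Single libraries stood apart from the rest of their group in 4 of 72 gene and group pairs checked, and the critical values used flag about 1 in 20 groups by chance. *Cyp7b1* was 15.1 CPM in E18.5 testis IVF 2, against 7.99 to 9.44 CPM in the others of that group. *Abcb11* was 4.64 CPM in F2 testis Natural 5, against 2.29 to 2.45 CPM in the others. *Slc10a1* was 0.198 CPM in 12-week testis Natural 1, against 0.548 to 0.640 CPM. *Nr1h4* was 22.3 CPM in ovary IVF 4, against 11.6 to 12.4 CPM.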

How the results depend on the processing

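*Cyp8b1* kept its direction in each sex under each alternative run with at least 2 libraries a group, and its call in all but 1 of these, the female fit with mapping rate as a covariate. In males the number of genes called was 1490 with at least 10 counts in every library, 1468 with mapping rate as a covariate and 2086 with the GC trend removed. That covariate left 6 pathway genes and the GC fit 1 member. With the GC trend removed and male IVF 3 left out together, an alternative chosen after seeing the data, 2200 genes, 1 member and 5 pathway genes were called, and *Cyp8b1* was −1.13 (adjusted p 0.000706). In females 24 pathway genes passed adjusted p alone. The covariate left 1322 genes, 0 members and 5 pathway genes, and the GC fit 2248 genes, 1 member and 9 pathway genes. Libraries mapped at 60% or more gave 1 member. Those mapped at 75% or more, which left 1 Natural library assumed to vary like the others and was chosen after seeing the data, gave 157 genes, 1 member and 0 pathway genes, and is no support for a call. The interaction was called for 2 members with the GC trend removed, and the IVF sex difference for 1 with the covariate. Leaving out 1 library gave 1 to 2 members in females and 1 to 2 in the IVF sex difference. Without female Natural 2 the interaction was called for 5 members and the Natural sex difference for 6. *Nr0b2* was the added member in both, with adjusted p of 0.0330 and 0.0141 by edgeR.

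Uncalled differences changed sign. In males *Abcb11* was −0.13 with at least 10 counts, −0.21 with the covariate, −0.33 with the GC trend removed, −0.29 with IVF 3 also left out, −0.076 in libraries mapped at 60% or more and −0.084 in those at 75% or more. *Cyp7b1* was −0.23 with the covariate, −0.28 in the GC fit and −0.061 with IVF 3 also left out, and *Nr0b2* was 0.19 and 0.14 in the GC fits. In females the covariate gave *Cyp7a1* 0.036, *Nr1h4* 0.024 and *Nr0b2* −0.25, the GC fit *Cyp7a1* 0.62, *Abcb11* 0.26, *Nr1h4* 0.042 and *Nr0b2* −0.093, and the 75% limit *Cyp7a1* 1.01, *Abcb11* 0.11 and *Nr0b2* −0.57. For the interaction *Abcb11* was 0.075 with at least 10 counts, 0.15 with the covariate and 0.62 in the GC fit, where *Cyp7a1* was 0.64, *Cyp7b1* 0.056 and *Nr0b2* −0.30. The Natural sex difference of *Abcb11* was −0.076 in the GC fit. The IVF sex difference of *Slc10a1* was 0.0022 without a filter, 0.13 with at least 10 counts and 0.22 in the GC fit, that of *Nr0b2* −0.16 with the covariate and −0.51 in the GC fit, and that of *Cyp27a1* −0.068 in the GC fit. Over the fits that left out 1 library, *Cyp7a1* in females ran from −0.46 to 0.034 and *Abcb11* in males from −0.076 to 0.24. In the IVF sex difference *Abcb11* ran from −0.033 to 0.27, *Nr0b2* from −0.26 to 0.52 and *Slc10a1* from −0.15 to 0.13. In gonads, uncalled differences also changed sign under the block (12-week *Cyp7a1*, ovary *Cyp27a1* and *Nr0b2*) and when single libraries were left out, and are not given. The causes were not tested.

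Same-numbered liver libraries showed little shared deviation (correlations −0.22 to 0.17), and only female Natural 5 correlated best with the IVF library of its own number. The numbers were therefore not treated as pairs. These correlations cannot tell whether libraries share a sire or litter. With the replicate number as a block, the calls were 2 members in males, 1 in females and 1 in the IVF sex difference.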
